A study of Mus musculus with 79 samples.

Results

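The 8 genes described here are Ahr, which encodes the aryl hydrocarbon receptor (AHR), and 7 genes that work with it or respond to it: the dimerization partners Arnt and Arnt2, the feedback regulators Ahrr and Tiparp, and the enzymes Cyp1b1, Nqo1 and Aldh3a1. They were taken by symbol from the 22319 gene symbols on the array. They had 9 of the 35556 probesets, because Cyp1b1 had 2, and each gene was represented by its probeset with the highest mean. Only Arnt and Arnt2 encode dimerization partners in the strict sense, so the group is called the AHR genes below.

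Expression was measured in whole quadriceps, a thigh muscle, of male mice of the BXD family. BXD strains are inbred lines that mix the genomes of C57BL/6J and DBA/2J, and the study used them to look for genes behind strain differences in movement. From further work in congenic and humanized mice, flies and worms, it concluded that Ahr was the gene behind a movement locus. Mice received either the chow diet (CD; Harlan 2018) throughout life or a high fat diet (HFD; Harlan 06414) from 8 weeks of age, and every animal was fasted overnight and sacrificed at 29 weeks. There were 79 arrays, 42 from CD and 37 from HFD pools, from 40 BXD strains and both parental strains, and 37 strains had an array on each diet. Each array held RNA pooled from about 5 males with the same strain and diet. Single animals were not measured, and p-values measure only the spread between strain pools. RNA extraction and arrays were run in 2 batches, with 18 CD and 17 HFD arrays in the first and 24 CD and 20 HFD arrays in the second. All values are in the deposited array units, scaled so that each array averages 8.0 with an SD of 2.0. They behave as logs of an unstated base, so differences are given in units and not as folds. The 7 muscle fibre markers, among them the actin gene Acta1 and the creatine kinase gene Ckm, averaged between 14.55 and 14.85 on every array, near the top of the scale.

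AHR is a ligand-activated transcription factor of the bHLH-PAS family that waits in the cytosol bound to HSP90. After binding dioxins, plant compounds or tryptophan metabolites such as kynurenine, it enters the nucleus, pairs with ARNT and binds xenobiotic response elements, whose core is GCGTG. The pair switches on detoxification genes, and also Ahrr, whose product competes for ARNT, and Tiparp, an ADP-ribosyltransferase that lowers AHR protein. ARNT is shared with the hypoxia factors HIF1A and EPAS1, and ARNT2 is its close relative, best known in the nervous system. The C57BL/6J and DBA/2J strains are known to carry Ahr alleles that differ in ligand affinity.

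The promoters show where the core motif lies near the start of these genes. RefSeq promoters (GRCm38.p6, 250 bases before the start site to 50 after it) were matched for 6 of the 8 genes, all except Ahr and Aldh3a1. The core GCGTG, searched on both strands, so that CACGC marks the minus strand, was found in 4 of the 6, and Arnt2 and Nqo1 had none in this window. It stands in 32.4% of all 32851 promoters in the table, so its presence is a description and not a binding site, and the arrays measured no binding. The stretches upstream of the start site that hold the motif are shown 5′ to 3′ on the strand of the gene, each with 20 flanking bases (fewer where the start site is reached) and the motif in capitals. Ahrr had 3 copies, as many as in 3.9% of promoters or more, in chr13:74292334-74292458 on the minus strand. Arnt had 1 copy in chr3:95434341-95434385 on the plus strand, Tiparp 1 in chr3:65528257-65528301 on the plus strand and Cyp1b1 1 in chr17:79715113-79715157 on the minus strand.
Ahrr: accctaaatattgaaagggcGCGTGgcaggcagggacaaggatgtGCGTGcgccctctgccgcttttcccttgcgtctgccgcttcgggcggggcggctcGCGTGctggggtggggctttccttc
Arnt: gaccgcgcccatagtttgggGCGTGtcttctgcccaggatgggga
Tiparp: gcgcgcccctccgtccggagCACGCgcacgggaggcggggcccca
Cyp1b1: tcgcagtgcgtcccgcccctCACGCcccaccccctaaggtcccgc

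On CD the levels of Ahr, Tiparp and Arnt2 had narrow ranges over the strains, and Nqo1 and Cyp1b1 had wide ones. Ahr, the receptor, ranged on CD from 8.50 in C57BL/6J over a median of 8.78 to 9.03 in BXD68, and on HFD from 8.51 in BXD64 over 8.83 to 9.21 in BXD44. The SD over strains was 0.14 on CD (n = 42) and 0.16 on HFD (n = 37). The distance from lowest to highest strain was 0.53 on CD and 0.70 on HFD, against a median of 0.72 and 0.76 over all probesets, which placed the Ahr range at the 17.3 and the 39.8 percentile. The strains at both ends of the Ahr order were thus closer together than for most probesets on the array. Tiparp and Arnt2 stood at the 21.9 and 25.5 percentile on CD, and Nqo1 at the 69.6. On HFD the ranges of the other 7 genes lay above the median of all probesets, between the 51.4 percentile (Tiparp) and the 78.9 (Cyp1b1).

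Arnt, the shared partner, ran from 11.15 in BXD68 over 11.52 to 11.89 in BXD43 on CD and from 11.09 in BXD63 over 11.43 to 11.92 in BXD79 on HFD. Arnt2 ran from 7.88 in BXD63 over 8.17 to 8.46 in BXD85 on CD, and from 7.44 in BXD96 over 8.02 to 8.30 in BXD103 on HFD. The HFD arrays of Arnt2 lay lower as a group, with both ends and the median below those on CD, and the groups overlapped. Among the feedback genes, Tiparp lay between 9.60 and 10.15 on CD and between 9.42 and 10.20 on HFD, and Ahrr between 6.53 and 7.19 on CD and between 6.32 and 7.27 on HFD. Among the enzymes, Nqo1, a quinone reductase also controlled by NRF2, lay between 8.97 in DBA/2J and 9.88 in BXD100 on CD and between 9.18 and 10.07 on HFD. Cyp1b1, a cytochrome P450 of hormone and xenobiotic oxidation, had the widest range of the 8 genes on HFD, from 7.34 in BXD87 to 8.51 in BXD79, and Aldh3a1, an aldehyde dehydrogenase, lay between 6.68 and 7.31 on CD and between 6.59 and 7.38 on HFD. No gene fell into separate groups of strains by a mixture test in either diet.

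**Figure D1:**
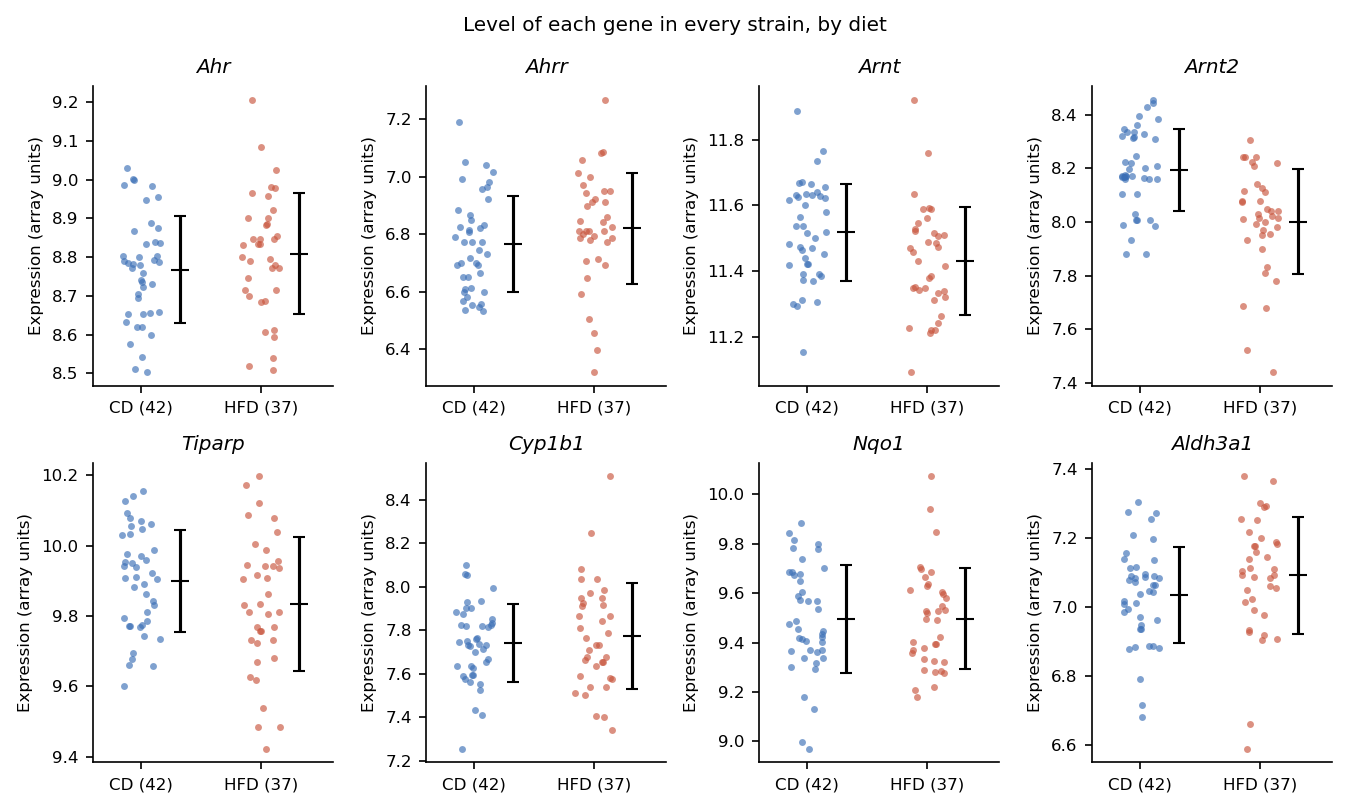
Each point is 1 array, the pool of 1 strain, with the level in array units on the vertical axis and the diet on the horizontal axis (42 CD and 37 HFD arrays); the black bar is the mean with the SD over strains. The HFD points of Arnt2 sit lower than the CD points, with means of 8.00 and 8.19, while those of the other genes lie over much the same range; the vertical axes differ between panels.

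The brightness of the probesets limits what can be read from some of them. Without detection calls, the 1154 olfactory receptor probesets, genes hardly used in muscle, served as a yardstick. The mean levels of Arnt, Tiparp, Nqo1, Ahr, Arnt2 and Cyp1b1 exceeded 100%, 99.8%, 99.7%, 99.2%, 97.7% and 95.8% of them, in that order. Aldh3a1 exceeded 83.9% and Ahrr 76.7%, so both lay closer to the level of genes hardly used in muscle. The second Cyp1b1 probeset exceeded 64.4%. Where a strand was known for the probesets numbered next to it, 4 of 4 genes lay on the plus strand, whereas Cyp1b1 lies on the minus strand, as did 7 of 7 neighbours of the probeset used here. Which strand the second probeset reads is not stated, and its values are given apart.

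Between the diets, Arnt2 fell and Arnt fell slightly, and the receptor Ahr itself did not pass the test. In a linear model over all 79 arrays with diet and batch as terms, 38.1% of all probesets passed at an adjusted p of 0.05, 18.9% higher and 19.3% lower on HFD. Of the 8 AHR genes 2 passed, both lower, a count too small to tell from the share of the array as a whole.

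Arnt2 had a mean of 8.19 ± 0.15 on CD (SD, n = 42) and 8.00 ± 0.20 on HFD (SD, n = 37). It was lower on HFD by 0.192 units (difference -0.192, SE 0.039, adjusted p = 4.88e-05, limma) and lower in 32 of 37 strains. The largest fall, of 0.659, was in BXD69 and the largest rise, 0.166, in BXD63. Arnt had a mean of 11.52 ± 0.15 on CD (SD, n = 42) and 11.43 ± 0.17 on HFD (SD, n = 37). Its difference was -0.087 (SE 0.036, adjusted p = 0.0444, limma), and it was lower in 25 of 37 strains. BXD68 went the other way, from the lowest Arnt level of all strains on CD, 11.15, to the second highest on HFD, 11.76. The Arnt call was lost within batch 1 (adjusted p = 0.283), within batch 2 (adjusted p = 0.212), after centring each array on its median (adjusted p = 0.130) and without dim probesets (adjusted p = 0.0529), although the difference stayed between -0.070 and -0.088 in these fits.

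The other 6 genes did not pass. Ahr had a mean of 8.77 ± 0.14 on CD (SD, n = 42) and 8.81 ± 0.16 on HFD (SD, n = 37), a difference of 0.041 with a 95% interval from -0.025 to 0.108 (adjusted p = 0.341, limma), and was higher on HFD in 23 of 37 strains. The interval leaves room for a difference of either sign that is smaller than the SD over strains. The differences were 0.054 for Ahrr, -0.065 for Tiparp, 0.032 for Cyp1b1, -0.001 for Nqo1 and 0.057 for Aldh3a1, with adjusted p-values from 0.175 to 0.993. Aldh3a1 passed after a second quantile normalization (0.091, adjusted p = 0.0185). The second Cyp1b1 probeset rose by 0.122 (SE 0.041, adjusted p = 0.0142, limma), higher in 27 of 37 strains, and the 2 probesets of this gene therefore gave different calls.

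**Figure D2:**
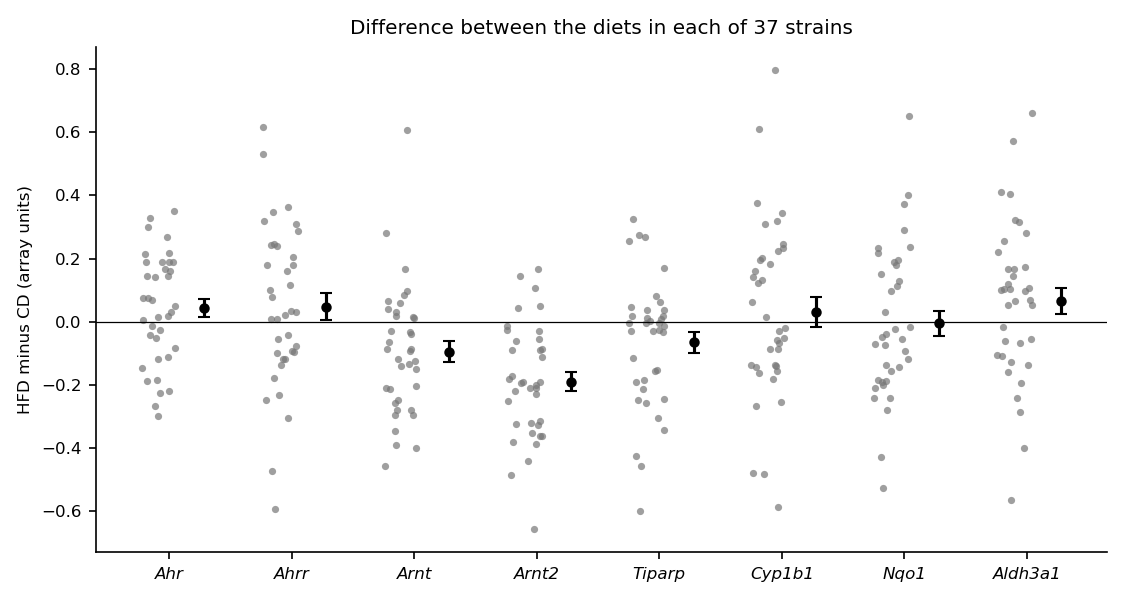
Each grey point is the HFD minus CD difference of 1 strain in array units (37 strains with both diets), and the black point with its bar is the mean and its standard error, with no batch term. The cloud of Arnt2 lies farthest below 0, with 32 of 37 strains under it; that of Arnt has 25 below 0 and a lone high point at 0.607, BXD68.

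Markers of other cell types moved with diet in the same arrays, on which 18.9% of all probesets were higher and 19.3% lower on HFD. Of 6 adipocyte markers 5 rose and Cfd, the adipsin gene, fell, with Lep, the leptin gene, up by 1.58 units and Cfd down by 0.61. The mean over the 6 ran from 9.25 to 10.82 on CD and from 9.44 to 11.44 on HFD. Of 5 endothelial markers 3 rose, of 4 macrophage markers 3, and of 7 muscle fibre markers 1 (Mb, myoglobin, by 0.130). Both satellite cell markers rose, as did 2 of 3 Schwann cell markers and 1 of 5 fibroblast markers, the third Schwann cell marker fell, and none of 3 red blood cell markers passed. In whole muscle, fewer cells of a type and less RNA per cell cannot be told apart, and the part of these cells in the Arnt and Arnt2 differences was not tested. With the mean of the olfactory receptor probesets as a covariate, a setting added after the data were seen, the Arnt2 difference was -0.119 (adjusted p = 0.0133), that of Arnt -0.129 (adjusted p = 0.00567), and Ahrr passed, higher on HFD by 0.107 (adjusted p = 0.0450).

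The wider pathway was read from gene lists. Among genes of AHR chaperoning and turnover, Cul4b, the scaffold of the ubiquitin ligase that AHR can join, fell by 0.152 (adjusted p = 0.00312), and 5 of the 7 listed, the HSP90 genes and Ptges3 among them, did not pass. Of 10 coregulators 7 did not pass. The corepressor gene Ncor1 rose by 0.049 and the coactivator gene Ncoa1 fell by 0.095.

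Among 12 other bHLH-PAS genes, which dimerize through the same domains, 2 rose and 2 fell, a share near the 38.1% of all probesets called. Hif1a, the hypoxia factor that shares ARNT, rose by 0.206 (SE 0.032, adjusted p = 2.35e-07). Arntl, the clock factor also called Bmal1, fell by 0.223 (SE 0.058, adjusted p = 0.00139), and Hif3a fell by 0.114 and Sim1 rose by 0.103. Epas1, Clock and Npas2 did not pass.

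Of 12 further AHR target genes 10 were matched on the array, and 5 fell, none rose and 5 did not pass, against 19.3% lower and 38.1% called in all over the array. Their median difference was -0.095, against -0.001 over all probesets. Slc7a5, an amino acid transporter gene, fell by 0.244 (adjusted p = 0.000507), Cyp1a2 by 0.190, Cyp2s1 by 0.149, Gsta2 by 0.097 and Serpinb2 by 0.094. All but Slc7a5 were dim, with mean levels above 60.6% (Serpinb2) to 88.3% (Gsta2) of the olfactory receptor probesets, while Slc7a5 exceeded 99.0%. Of the brighter 17778 probesets taken alone, 2246 were called lower and 5292 in all, against 6848 and 13551 of all 35556. Calls were thus more frequent among dimmer probesets than over the array. Cyp1a1, the classic AHR target, had a difference of -0.099 and an adjusted p of 0.0619. Of 9 NRF2 genes, the antioxidant set to which Nqo1 also belongs, Slc7a11 alone passed, lower by 0.238 (adjusted p = 3.95e-05), from a dim probeset whose mean level exceeded 63.1% of the olfactory receptor probesets.

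The kynurenine pathway, whose products include AHR ligands, had 8 of 10 genes called, against 38.1% of all probesets. Ido1, Ido2 and Tdo2, which open the pathway from tryptophan, fell by 0.182, 0.251 and 0.183, and Haao and Aadat fell by 0.188 and 0.142. Kynu, Kmo and Ccbl1 rose by 0.199, 0.115 and 0.093. Ccbl1 encodes a kynurenine aminotransferase. Several of these probesets were dim in both directions, and calls were more frequent among dimmer probesets than over the array. Among those that fell, the mean level exceeded 17.9% of olfactory receptor probesets for Tdo2, 48.2% for Aadat, 74.5% for Ido1, 95.2% for Haao and 95.7% for Ido2. Among those that rose it exceeded 60.7% for Kynu, 62.5% for Kmo and 99.8% for Ccbl1.

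Arnt2 alone of the 8 passed a test of whether strains kept their order between the diets. Over all probesets, the median correlation between a strain's CD and HFD values was r = 0.14 (37 strains, batch means removed), and 10.5% passed at an adjusted p of 0.05 by permutation. For Arnt2, the 1 AHR gene called, r was 0.47 (permutation p = 0.00309, adjusted p = 0.0343) and rho 0.42 (permutation p = 0.0111). Within batches r was 0.62 over the 12 strains with both arrays in batch 1 and 0.55 over the 17 in batch 2, but -0.41 over the 8 strains whose arrays came from different batches. Without BXD63 and BXD96, which lay farthest from the median on CD, r was 0.41 and no longer passed (adjusted p = 0.116).

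For Ahr r was 0.33 (permutation p = 0.0494, adjusted p = 0.221) and rho 0.30 (permutation p = 0.0678), with 0.22 within batch 1, 0.50 within batch 2 and 0.16 across batches. Without BXD63 and C57BL/6J it was 0.29. BXD63 was second lowest in Ahr on both diets, 8.51 and 8.52, whereas C57BL/6J was the lowest strain on CD at 8.50 and stood above 24 strains on HFD at 8.85. For Nqo1 r was 0.39 (permutation p = 0.0171, adjusted p = 0.113) and rho 0.46 (permutation p = 0.00499). Aldh3a1 was the one gene with a negative value, r = -0.33 (permutation p = 0.0430, adjusted p = 0.203) and rho -0.31 (permutation p = 0.0591), with -0.37 and -0.36 within the batches. Neither gene passed over all probesets. Tiparp, Arnt, Cyp1b1 and Ahrr had r of 0.22, 0.15, 0.10 and 0.03. For Arnt the batches disagreed, with 0.70 in batch 1 and -0.27 in batch 2.

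**Figure D3:**
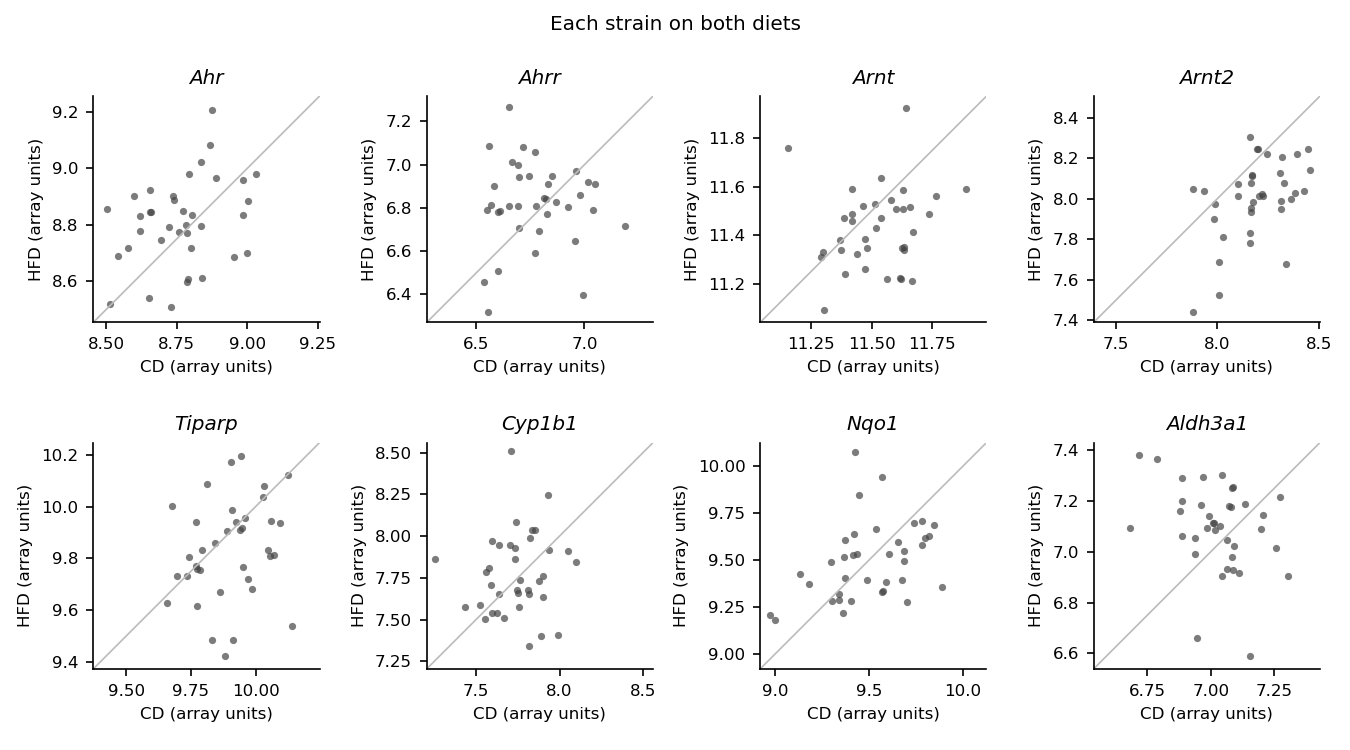
Each point is 1 of 37 strains with its CD level on the horizontal and its HFD level on the vertical axis, both in array units as deposited; the grey line marks equal levels. Most Arnt2 points lie below the line and rise from left to right (r = 0.47 after removing batch means), while the Ahrr points show no trend (r = 0.03).

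The parental strains did not differ in any of the 8 genes by the test. In a model with a coefficient for each strain, 1.26% of probesets passed for C57BL/6J against DBA/2J, and 0 of the 8 AHR genes (limma), of which also 0 had an unadjusted p under 0.05. The nearest was Nqo1, at 9.30 on CD and 9.49 on HFD in C57BL/6J and 8.97 and 9.21 in DBA/2J, a difference of 0.30 with a 95% interval from -0.04 to 0.65 (adjusted p = 0.705). DBA/2J was the lowest strain for Nqo1 on CD and the second lowest on HFD. For Ahr the sign differed by diet. C57BL/6J was below DBA/2J by 0.335 on CD (8.50 against 8.84) and above it by 0.242 on HFD (8.85 against 8.61), and the joint difference was -0.05 with an interval from -0.30 to 0.21. With 1 array for each parent and diet, the spread was borrowed from the other strains.

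Over the strains, Ahr levels ran against those of Aldh3a1 on CD. None of 35555 other probesets passed with Ahr as a covariate in CD (0%) or in HFD (0%). In CD 2395 of them (6.74%) and in HFD 2585 (7.27%) had an unadjusted p under 0.05. The smallest adjusted p was 0.559 in CD and 0.101 in HFD. Among the 7 pairs of Ahr with another AHR gene, Aldh3a1 stood lowest in CD, with r = -0.54 (permutation p = 0.00018) and rho -0.47 (permutation p = 0.00185). It was -0.60 and -0.49 within the batches and -0.59 without C57BL/6J and BXD63. The adjusted p over all probesets was 0.676 with Ahr as the covariate and 0.0169 with Aldh3a1 as the covariate, so the pair passed in one of these fits. Cyp1b1 followed in CD with r = -0.43 (permutation p = 0.00505) and rho -0.36 (permutation p = 0.0198), at -0.56 and -0.33 within batches and -0.46 without the same 2 strains, but it passed in neither fit over all probesets (adjusted p = 0.678 with Ahr and 0.853 with Cyp1b1 as the covariate). The second Cyp1b1 probeset had a slope on Ahr of -0.13 ± 0.22 (SE) in CD, against -0.56 ± 0.19 (SE) for the one used here.

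In HFD neither relation had that sign. Aldh3a1 had r = 0.22 (permutation p = 0.201) and Cyp1b1 r = 0.12 (permutation p = 0.492), and the pair with the highest r was Arnt, at 0.41 (permutation p = 0.0125) with rho 0.39 (permutation p = 0.0175), 0.63 within batch 1 and 0.28 within batch 2. The slope of Aldh3a1 on Ahr was -0.55 ± 0.14 (SE) in CD and 0.23 ± 0.18 (SE) in HFD. The difference between these slopes, 0.79, had an unadjusted p of 0.000902 and an adjusted p close to 1 over all probesets (limma interaction, added after the data were seen), so no gene's relation with Ahr passed as different between the diets. Aldh3a1 was one of the dim probesets.

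Across all 28 pairs of AHR genes, the correlations were smaller in CD than in HFD. The median absolute r was 0.15 in CD and 0.30 in HFD, and 0.11 and 0.14 with the first principal component over all probesets, the main axis on which the arrays differ, as a covariate. In CD and HFD, 6 and 11 pairs had a permutation p under 0.05. With each gene as the covariate, 4.6% (Cyp1b1) to 24.7% (Ahrr) of all probesets had an unadjusted p under 0.05 in CD (limma). In HFD these shares ran from 7.3% (Ahr) to 40.3% (Arnt2). The pair counts were not tested against these shares. A pair was called where its adjusted p over all probesets was under 0.05 in both fits, with each gene in turn as the covariate. No pair was called in CD and 2 in HFD, and the difference between the diets was not tested. In 1 fit only, Ahr with Aldh3a1 passed in CD, and in HFD 4 pairs did, Arnt2 with Ahrr, Cyp1b1 and Nqo1, and Tiparp with Aldh3a1. Arnt and Cyp1b1 had r = 0.68 in HFD (permutation p = 2e-05) and rho 0.60 (permutation p = 1e-04), with 0.53 and 0.76 within the batches and 0.56 without BXD63 and BXD79. In CD the same pair had r = 0.33 (permutation p = 0.0304), which fell to 0.09 without BXD43 and BXD68 and so rests on these strains. BXD68 had the lowest CD level of both genes, and BXD79 the highest HFD level of both. Ahrr and Aldh3a1 had r = 0.53 in HFD (permutation p = 0.00084) and rho 0.52 (permutation p = 0.00108), with 0.49 and 0.64 within batches and 0.51 without BXD79 and BXD84, but 0.22 with the first principal component as a covariate. Both of these genes fell from CD to HFD in BXD63 by more than in any other strain, by 0.595 and 0.566.

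Arnt2 ran against several others in HFD. Its r was -0.46 with Nqo1 (permutation p = 0.00392), -0.44 with Cyp1b1 (permutation p = 0.00686), -0.40 with Arnt (permutation p = 0.0150) and -0.40 with Tiparp (permutation p = 0.0146), while it was 0.42 with Ahrr (permutation p = 0.0105) and 0.40 with Aldh3a1 (permutation p = 0.0158). For Cyp1b1 it was 0.04 within batch 1 and -0.80 within batch 2, and for Arnt 0.01 and -0.64. With the first principal component as a covariate, the same 6 values were -0.14, -0.15, -0.14, -0.07, 0.00 and -0.19. Under the same setting Arnt and Cyp1b1 had 0.59, and Ahr and Aldh3a1 had -0.49 in CD and 0.49 in HFD.

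**Figure D4:**
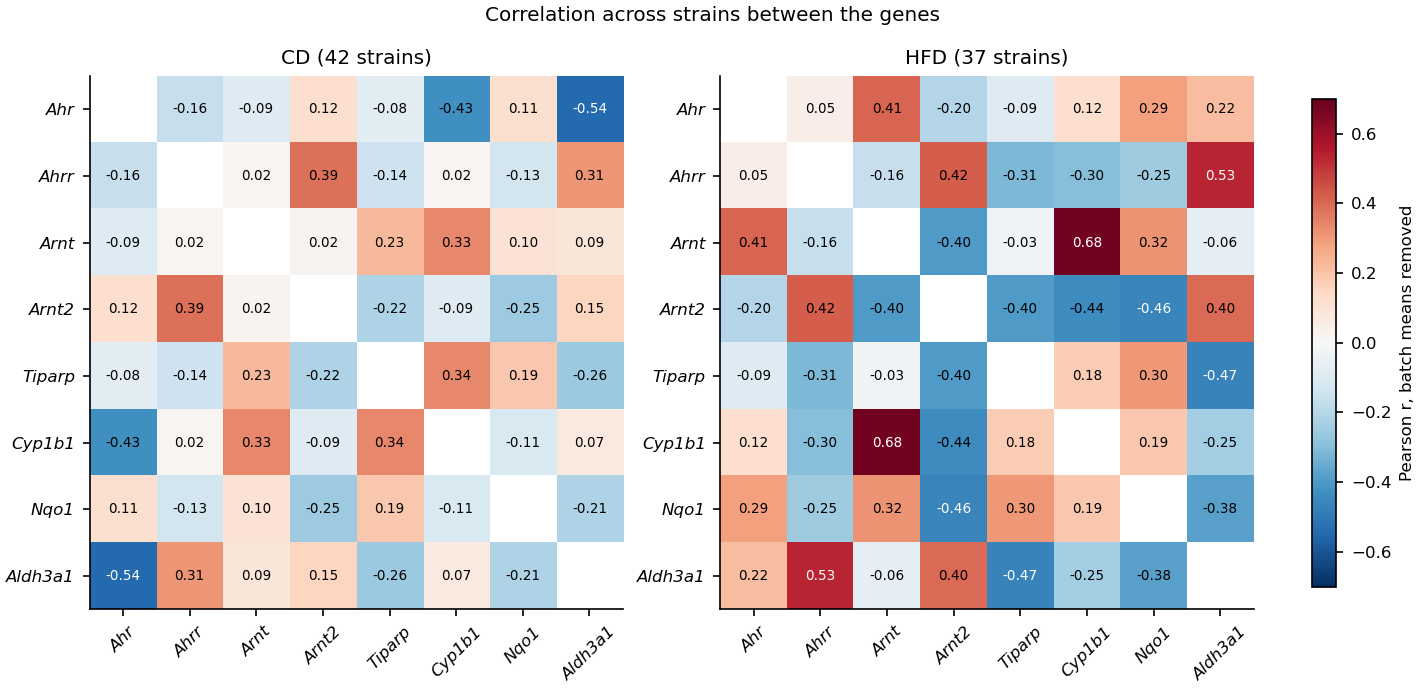
Each cell gives Pearson r between 2 AHR genes over the 42 CD arrays (left) or the 37 HFD arrays (right) with batch means removed; red is positive and blue negative. The HFD panel holds the deeper colours, led by Arnt with Cyp1b1 at 0.68 and Ahrr with Aldh3a1 at 0.53, and the lowest CD value is Ahr with Aldh3a1 at -0.54.

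The genes whose levels followed Ahr most closely in both diets were led by Tjp1 and Eltd1. Genes were ranked by the smaller of the CD and HFD correlations. Since that ranking chose them, the values are a description, and none passed over all probesets in either diet. The first 10 were Tjp1, which encodes a tight junction scaffold (r = 0.48 in CD and 0.51 in HFD), Eltd1, an endothelial adhesion receptor (0.48 and 0.50), Prkch, a protein kinase C on chromosome 12 (0.45 and 0.48), Flt1, a VEGF receptor (0.45 and 0.48), Bcam, a laminin receptor (0.46 and 0.45), Raph1 (0.42 and 0.46), Prepl (0.50 and 0.41), Acta2, the smooth muscle actin of vessel walls (0.41 and 0.44), Kcnma1, a potassium channel (0.50 and 0.41), and Dennd3 (0.41 and 0.42). Within single batches their r lay between 0.34 and 0.62 in CD and between 0.30 and 0.69 in HFD. The CD array of C57BL/6J had the lowest Ahr level and also the lowest level of 7 of these 10 genes, Tjp1 at 9.25, Eltd1 at 9.68 and Flt1 at 9.58 among them. Without the 2 arrays farthest from the Ahr median, C57BL/6J and BXD63 in CD, the 10 values lay between 0.27 and 0.53 in CD, and between 0.30 and 0.52 in HFD.

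Genes that ran against Ahr in both diets had values of like size. The first was Fbxo17, which encodes an F-box protein (-0.47 and -0.44), then Olfr810 (-0.46 and -0.43), Irf2bp1 (-0.42 and -0.43), 4731417B20Rik (-0.39 and -0.39), Kcnk16 (-0.38 and -0.40), the microRNA gene Mir222 (-0.40 and -0.38), Cacna2d2 (-0.38 and -0.41), Atl2 (-0.37 and -0.38), Cntnap3 (-0.42 and -0.36) and Gpr165 (-0.39 and -0.36). Of these, 7 were lower on HFD and 1, Irf2bp1, was higher, and of the 10 that followed Ahr 4 were higher and 0 lower, against 18.9% higher and 19.3% lower over the array. In all, 192 probesets had an unadjusted p under 0.05 with Ahr in both diets with the same sign, which is 8.02% of those in CD and 7.43% of those in HFD. Another 34 had it with opposite signs. Over all probesets, 6.74% had such a p of either sign in CD and 7.27% in HFD. For the other AHR genes, the same-sign share of those in CD ran from 32.3% (Cyp1b1) to 64.9% (Arnt2).

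The endothelial marker list followed Ahr on HFD. All 5 genes (Pecam1, Cdh5, Kdr, Tie1 and Cldn5) had a positive r with Ahr in both diets, between 0.01 and 0.46 in CD and between 0.24 and 0.57 in HFD, with Kdr, another VEGF receptor, highest in CD and Pecam1 highest in HFD. None of the 5 passed singly over all probesets. The mean of the list had r = 0.34 with Ahr in CD (permutation p = 0.0263, adjusted p = 0.149 over 224 relations of 14 lists, 8 genes and 2 diets) and r = 0.48 in HFD (permutation p = 0.00252, adjusted p = 0.0403). The Spearman values were 0.32 and 0.47. Within batches r was 0.31 and 0.39 in CD and 0.42 and 0.53 in HFD. Without the 2 arrays farthest from the median of the list mean it was 0.20 in CD and 0.39 in HFD. The C57BL/6J array on CD had the lowest endothelial mean of all 42, 9.53. The CD value without this array alone was not computed. No other list passed with Ahr in either diet. The list of further AHR targets had r = -0.03 in CD and 0.28 in HFD, and that of the NRF2 genes -0.08 and 0.17.

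Arnt had higher correlations with its leading genes than Ahr had with its own. With Arnt as the covariate 1.88% of probesets passed in CD (667) and 5.88% in HFD (2092), and 429 passed in both with the same sign, 64.3% of the CD calls and 20.5% of the HFD calls. The genes with the highest r in both diets included 2 of muscle protein breakdown in fasting. Fbxo32 and Trim63 encode atrogin-1 and MuRF1, the ubiquitin ligases that mark muscle proteins for destruction under FOXO control, and Klhl38 is a muscle gene of the kelch family. Klhl38 ranked first with r = 0.87 in CD and 0.84 in HFD, and Fbxo32 had 0.83 and 0.82, Clip1 0.81 and 0.85, Zfyve1 0.81 and 0.84, and Trim63 0.81 and 0.86. All mice were fasted before sacrifice, so there is no fed group to set beside these values.

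The relation held within each batch. Over the 5 genes, r lay between 0.76 and 0.90 within batches in CD and between 0.79 and 0.94 in HFD, between 0.74 and 0.85 without the 2 arrays farthest from the Arnt median in CD, and between 0.75 and 0.83 in HFD. With the first principal component as a covariate 777 probesets passed with Arnt in CD and 833 in HFD, and with Ahrr, for which 2302 and 3300 passed without it, 0 and 0. Trim63 ranged on CD from 11.61 in BXD68 over 12.51 to 13.52 in BXD43 and on HFD from 11.46 in BXD63 over 12.03 to 13.28 in BXD79. The same strains stood at the ends for Arnt in both diets, and on HFD all 5 genes were lowest in BXD63 and 4 of 5 were highest in BXD79. BXD68, in which Arnt rose by 0.607, went from 11.61 to 13.14 in Trim63 and from 12.93 to 13.84 in Fbxo32. As with Arnt, the group level was lower on HFD for Klhl38 (by 0.188, adjusted p = 0.0254), Fbxo32 (by 0.174, adjusted p = 0.0279) and Trim63 (by 0.341, adjusted p = 0.00630), and Clip1 and Zfyve1 did not pass.

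**Figure D5:**
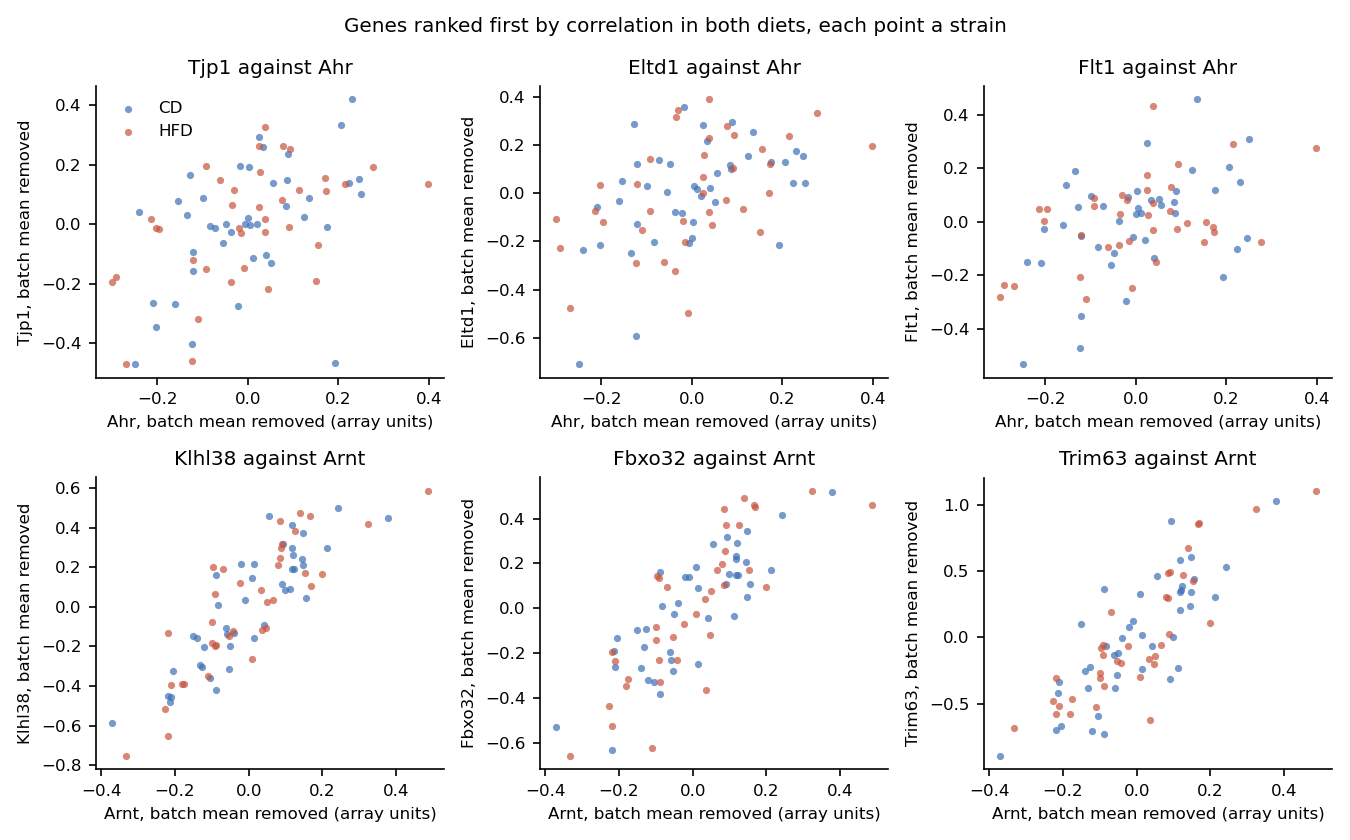
Each point is 1 strain on CD (blue, 42) or HFD (red, 37), with the AHR gene on the horizontal axis and the gene named in the title on the vertical axis, both in array units after removing batch means. The points of Klhl38, Fbxo32 and Trim63 against Arnt (lower row) form narrow bands with r of 0.81 to 0.87, while those of Tjp1, Eltd1 and Flt1 against Ahr (upper row) scatter widely with r of 0.45 to 0.51.

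Arnt also followed the antioxidant list, though not all of its members. The mean of the 9 NRF2 genes had r = 0.57 with Arnt in CD (permutation p = 0.00011, adjusted p = 0.00784; rho 0.51) and 0.70 in HFD (permutation p = 1e-05, the smallest that the draws can give, adjusted p = 0.00224; rho 0.64). Singly, Gclc and Gclm, the subunits of the enzyme that makes the glutathione precursor, had r of 0.72 and 0.60 in CD and 0.60 and 0.74 in HFD and passed over all probesets in both diets, as did Srxn1 with 0.59 and 0.74. Hmox1, heme oxygenase 1, had 0.49 in CD (adjusted p = 0.0523) and 0.72 in HFD (adjusted p = 0.000106). In CD 7 of 9 had a positive r and in HFD 8. Ephx1 had -0.31 and 0.15, Slc7a11 -0.01 and -0.18, and Gstm1 0.09 and 0.03, in CD and HFD. In HFD the list had 0.18 within batch 1 and 0.91 within batch 2, and in CD 0.56 and 0.58. Without the 2 arrays farthest from the median of the list mean the values were 0.44 in CD and 0.59 in HFD. Nqo1, an NRF2 gene among the 8, had r = 0.10 with Arnt in CD and 0.32 in HFD. The endothelial list had r = 0.57 with Arnt in HFD (permutation p = 0.00021, adjusted p = 0.00784), led by Cldn5 at 0.75 and Pecam1 at 0.60, while Kdr had 0.03. In CD the same list had r = -0.11 (adjusted p = 0.722), with 2 of 5 genes positive and Kdr at -0.41. In CD the list of further AHR targets had r = 0.48 with Arnt (permutation p = 0.00124, adjusted p = 0.0260; rho 0.38). It was 0.31 without the 2 arrays farthest from the median of that list's mean. In that diet 6 of its 10 genes had a positive r, from -0.11 to 0.66. In HFD the list had 0.44 and did not pass (adjusted p = 0.0694), with 3 of 10 positive.

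Cyp1b1 went with markers of adipocytes and macrophages and with antioxidant genes on HFD. The same relations did not pass on CD, and the difference between the diets was not tested. No probeset passed with Cyp1b1 in CD (0%) and 6.17% passed in HFD (2195), which became 192 probesets with the first principal component as a covariate. In HFD the mean of the 6 adipocyte markers had r = 0.56 with Cyp1b1 (permutation p = 0.00028, adjusted p = 0.00896; rho 0.51), with 0.39 and 0.68 within the batches, and that of the 4 macrophage markers 0.59 (permutation p = 0.00021, adjusted p = 0.00784; rho 0.54), with 0.64 and 0.55. Fabp4, the fatty acid binding protein of adipocytes, had r = 0.79 (adjusted p = 4.33e-05), and Cd68, of macrophages, 0.60 (adjusted p = 0.00725). The NRF2 list had r = 0.67 in HFD (permutation p = 2e-05, adjusted p = 0.00224; rho 0.58), with Hmox1 at 0.66. In CD all 6 adipocyte and all 4 macrophage markers had a positive r with Cyp1b1 as well, up to 0.45 for Plin1, without passing. The genes with the highest r in both diets were Dpep1 (0.61 and 0.57), Pde3b, the phosphodiesterase through which insulin restrains lipolysis (0.57 and 0.57), Dapk1 (0.63 and 0.56), Sfxn1 (0.55 and 0.58) and Ninj1 (0.56 and 0.54). Without the 2 arrays farthest from the Cyp1b1 median the HFD values of these 5 were between 0.33 and 0.41.

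Tiparp ran against the endothelial markers on CD. With Tiparp 0.09% of probesets passed in CD and 4.17% in HFD (32 and 1482), which became 9 and 45 with the first principal component as a covariate. Its leading genes were Dhx36, an RNA helicase gene that lies on chromosome 3 as Tiparp does (r = 0.59 in CD and 0.61 in HFD), Ipo7, a nuclear import receptor (0.58 and 0.59), Yme1l1, a mitochondrial protease (0.57 and 0.65), Stag2, a cohesin subunit (0.57 and 0.71), and Zfml (0.61 and 0.57). In CD these 5 were between 0.79 and 0.81 within batch 1 and between 0.35 and 0.41 within batch 2. The endothelial list had r = -0.47 with Tiparp in CD (permutation p = 0.00151, adjusted p = 0.0260; rho -0.52), negative for 5 of 5 genes, with -0.53 and -0.40 within batches, and -0.38 in HFD (adjusted p = 0.143). The Schwann cell list had -0.51 in HFD (permutation p = 0.00136, adjusted p = 0.0260; rho -0.50) and -0.26 in CD (adjusted p = 0.305).

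Nqo1 had 0.00281% of probesets called in CD and 3.02% in HFD, and 0 in both with the first principal component as a covariate. Its leading genes were Mtcp1 (0.56 and 0.58), Aqr (0.55 and 0.56), Zdhhc17 (0.56 and 0.55), Tmem128 (0.54 and 0.59) and 4930420K17Rik (0.54 and 0.54). None of its relations with the 14 lists, the NRF2 genes included, passed.

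Ahrr, Arnt2 and Aldh3a1 had the highest shares of probesets called, 6.47%, 2.04% and 6.29% in CD and 9.28%, 27.9% and 20.6% in HFD. With the first principal component as a covariate, the calls came down to 0, 1 and 1 probesets in CD and 0, 0 and 0 in HFD, a loss that the HFD calls of Nqo1, Tiparp and Cyp1b1 also showed in whole or in large part. In HFD all 7 muscle fibre markers had a positive r with each of these genes. The mean of the fibre list had r = 0.53 with Ahrr (permutation p = 0.0009, adjusted p = 0.0234; rho 0.45), 0.52 with Arnt2 (permutation p = 0.00094, adjusted p = 0.0234; rho 0.44) and 0.57 with Aldh3a1 (permutation p = 0.0002, adjusted p = 0.00784; rho 0.50), although for Arnt2 it was 0.08 in batch 1 and 0.78 in batch 2. In CD the fibre list had r = 0.24 with Ahrr, 0.34 with Arnt2 and 0.29 with Aldh3a1 and passed with none (adjusted p = 0.149 to 0.363, permutation). The leading genes included Col4a5 (0.66 and 0.69), Tmprss6, Crabp2 and Efna4 for Ahrr. They included Olfr282 (0.64 and 0.66), B3gat1, LOC100043371 and Arpm1 for Arnt2, and were Pld2 (0.67 and 0.77), Megf6, Gm10540, mir-92b and Gm6795 for Aldh3a1. In CD the list of AHR chaperones and turnover genes had r = -0.48 with Aldh3a1 (permutation p = 0.00143, adjusted p = 0.0260; rho -0.46), with -0.27 and -0.63 within batches.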

How the data were processed

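Quadriceps RNA, pooled by the authors from about 5 males per strain and diet, was hybridized to Affymetrix Mouse Gene 1.0 ST arrays (Affymetrix Expression Console per the submitters' processing notes). The deposited values are a score per probeset, scaled by the authors to a mean of 8.0 and an SD of 2.0 on every array. The summarization, log base, build and any batch correction are not given in the sources used here. Since this scaling ties each array's values together, only relative levels can be read. Arrays have no read depth, and precision depends on how many there are. The CD column for BXD92 was matched to the title BXD92a.

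The 8 genes and all lists were chosen with earlier results of these data known. Models used limma 3.58.1 (R 4.3.3; lmFit, eBayes) on all 35556 probesets with Benjamini-Hochberg adjustment and a threshold of 0.05: diet and batch over 79 arrays; a gene's level and batch within each diet; and strain, diet and batch for the parents. Since the score behaves as a log, no pseudocount was used. Correlations (Python 3.11.15, numpy 2.4.6) were taken after removing batch means, with two-sided permutation p-values from 100000 draws (10000 for whole-table adjustment in alternatives). Separate groups of strains were called where a mixture of 2 normals lowered BIC by at least 10 with Ashman's D over 2. Named genes were the 8, the 10 highest and 10 lowest with Ahr in both diets, the 5 highest for each other gene, and members of the lists. The lists held AHR chaperones and turnover genes, coregulators, other bHLH-PAS genes, further AHR targets, NRF2 genes, kynurenine pathway genes, and markers of muscle fibres, adipocytes, endothelium, fibroblasts, macrophages, Schwann cells, red blood cells and satellite cells. The models were tested on simulated data. Gene symbols and neighbours came from RefSeq GRCm38.p6. Each array holds 1 strain on 1 diet, so the strain paired the diets in an alternative with the strain as a block. Results for a few genes among the lists and leading genes are not reported here.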

Additional observations from a re-analysis of the deposited data

How the results depend on the processing

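With the strain as a replicate block over the 37 paired strains, 2 of the 8 AHR genes were called between the diets, as without it (Arnt2 adjusted p = 4.89e-06, Arnt 0.0262), and the block changed no call; the Ahr difference was 0.042. The count called was 1 in batch 1 alone, in batch 2 alone, after centring each array on its median and without the dimmer part of the probesets. In each of these Arnt2 was called and Arnt was not. For the correlation between diets the count fell from 1 to 0 in batch 1 alone (Arnt2 r = 0.62), in batch 2 alone (0.55), over strains with arrays in different batches (-0.41, reversed) and without the 2 farthest strains (0.41); the first 3 of these hold fewer strains. The count of probesets called with Ahr was 0 in both diets under all alternatives except CD without BXD63, where it was 1. Aldh3a1 was called higher on HFD after a second quantile normalization (0.091). Of 94 alternative values of a gene's diet difference, 83 kept their sign and side of the threshold. The diet differences of Nqo1 and Cyp1b1, both close to 0, changed sign in 4. The narrower range between the 10th and 90th percentile of strains lowered all 16 strain ranges by more than 1 SD.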
